A study of Mus musculus with 4 samples.

Results

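Expression of *Mgst1*, the gene of microsomal glutathione transferase 1, was compared with that of 9 related glutathione transferase genes in *Foxf2*-/- and control palatal mesenchyme. The 10 genes were chosen by name from the 22096 gene symbols in the tables. *Mgst1* was picked because its level was known to be higher in the *Foxf2*-/- embryos, and *Mgst2*, *Mgst3*, *Gstm1*, *Gstm2*, *Gstm5*, *Gstp1*, *Gsta4*, *Gsto1* and *Gstt1* serve as its relatives. The values of these 10 genes in the comparison of *Foxf2*-/- with control embryos are therefore given as a description, with no test.

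RNA-seq was performed on sorted cells of 4 E13.5 littermates of mixed strain background, 1 library per embryo. All 4 embryos carried 1 *Osr2*RFP knock-in allele, by which the RFP-positive cells of the palatal shelves were sorted. The labels name the groups *Foxf2*-/-*Osr2*RFP/+ (2 embryos), *Foxf2*+/-*Osr2*RFP/+ (1 embryo) and *Osr2*RFP/+ (1 embryo, *Foxf2*+/+ by the study's text). The last 2 genotypes served together as controls, so neither had a replicate, and the embryos are called wild type (*Foxf2*+/+), heterozygote (*Foxf2*+/-) and mutants (*Foxf2*-/-) from here on. The *Foxf2* null allele was inherited and not restricted to a tissue, and RFP marks cells that express *Osr2*, which are only part of the shelf.

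Glutathione transferases join the tripeptide glutathione to reactive compounds such as drugs, lipid peroxidation products and oxidised metabolites, which makes them less reactive and easier to export. The family falls into soluble enzymes, named by class (alpha, mu, pi, theta, omega), and membrane proteins of the MAPEG class, to which *Mgst1*, *Mgst2* and *Mgst3* belong. *Mgst1* encodes an abundant liver enzyme of the endoplasmic reticulum and outer mitochondrial membrane that also reduces lipid peroxides. Many genes of the family are known targets of the stress-activated transcription factor Nrf2, encoded by *Nfe2l2*, which binds antioxidant response elements.

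*Mgst1* lies on the plus strand of chromosome 6 of mm9 (chr6:138089058-138105273), and a single RefSeq transcript of 943 bases was listed for it. Because its level set it apart from its relatives, the bases before its start are shown, as RefSeq gives them in GRCm38.p6. They stand next to those of *Mgst2*, the other gene of the set with higher values in both mutants, and of *Gstm5*, a relative without such a difference. RefSeq lists more than 1 start for *Mgst1*, and both are given. The windows lie at chr6:138140277-138140526 and chr6:138141337-138141586 for *Mgst1*, at chr3:51660929-51661178 for *Mgst2* and at chr3:107895604-107895853 for *Gstm5*, all on the plus strand. Each holds the 250 bases before the annotated start, 5′ to 3′, and capitals mark matches to the motifs named next.
Mgst1, upstream start: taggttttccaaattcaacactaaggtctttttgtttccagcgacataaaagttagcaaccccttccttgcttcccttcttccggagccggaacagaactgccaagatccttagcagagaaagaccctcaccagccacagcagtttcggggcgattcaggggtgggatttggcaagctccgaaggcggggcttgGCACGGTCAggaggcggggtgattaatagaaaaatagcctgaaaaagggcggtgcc
Mgst1, downstream start: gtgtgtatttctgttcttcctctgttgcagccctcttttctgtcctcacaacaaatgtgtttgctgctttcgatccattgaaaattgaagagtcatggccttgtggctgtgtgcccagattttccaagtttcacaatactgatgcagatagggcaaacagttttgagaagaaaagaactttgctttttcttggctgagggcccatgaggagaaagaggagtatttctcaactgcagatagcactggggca
Mgst2: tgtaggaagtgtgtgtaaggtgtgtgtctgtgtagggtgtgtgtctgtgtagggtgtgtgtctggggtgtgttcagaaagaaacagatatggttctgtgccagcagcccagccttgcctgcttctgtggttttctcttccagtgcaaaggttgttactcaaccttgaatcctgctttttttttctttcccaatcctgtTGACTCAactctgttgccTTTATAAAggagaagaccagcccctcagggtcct
Gstm5: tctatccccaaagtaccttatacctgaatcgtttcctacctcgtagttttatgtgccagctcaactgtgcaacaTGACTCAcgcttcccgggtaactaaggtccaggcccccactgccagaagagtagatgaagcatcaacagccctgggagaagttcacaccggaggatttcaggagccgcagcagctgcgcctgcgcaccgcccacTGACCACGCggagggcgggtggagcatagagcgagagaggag

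The motifs searched on both strands were the core of the antioxidant response element (TGACNNNGC), a forkhead core (GTAAACA), an AP-1 site (TGANTCA) and a TATA box (TATAAA). An antioxidant response element core was found before the upstream start of *Mgst1*, on the minus strand and beginning 56 bases before the start, and before *Gstm5*, beginning 42 bases before the start. The *Gstm5* window also held an AP-1 site. The window before *Mgst2* held an AP-1 site and TATA boxes on both strands, which overlap each other. Windows were listed for 9 of the 10 genes, 11 windows in all. Of these 11 windows, 2 held the antioxidant core, 3 the AP-1 site, 2 the TATA box and 0 the forkhead core. Among all 32851 windows of this length, the shares were 10.2% for the antioxidant core, 6.75% for the AP-1 site, 12.4% for the TATA box and 3.17% for the forkhead core. These matches describe the letters in the windows only.

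The deposited levels are FPKM, the fragments of a transcript scaled to its length and to the size of the library. Levels can thus be compared roughly between genes and between embryos. A scaling factor by median ratios still ran from 0.947 in the first mutant to 1.05 in the wild type. Read numbers are unknown, and the heterozygote library was 1.19 times and the mutant libraries 1.02 and 1.14 times as deep as the wild-type library. *Foxf2* itself was at 85.4 FPKM in the wild type, 45.1 in the heterozygote, and 1.41 and 2.28 in the mutants, so its level followed the labels. *Osr2* was between 129 and 147 FPKM in all 4 embryos, and *Col1a1*, *Col3a1* and *Vim* of the mesenchyme marker list were above 200 FPKM in each. Over the 11154 genes tested, the median difference between mutants and controls was -0.08 on the log2(FPKM + 0.1) scale, and 70.3% of the genes had a lower mean in the mutants, so slightly lower values were the general rule in the tables as deposited. In bulk RNA of sorted cells, a change in the share of cells that express a gene and a change in RNA per cell cannot be told apart.

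*Mgst1* was at 3.17 FPKM in the wild type, 2.48 in the heterozygote, and 7.41 and 7.06 in the mutants. Both mutants were above both controls, so the groups did not overlap. The mean was 2.83 ± 0.486 FPKM in the control embryos and 7.24 ± 0.250 FPKM in the mutants (SD, n = 2 each). The log2 difference was 1.34, a 2.52-fold higher level, on the log2(FPKM + 0.1) scale. Its standard error of 0.145, like those below, is from a fit across all genes tested and not from the gene's own spread alone. Against the wild type the level was 2.24-fold higher, and against the heterozygote 2.84-fold higher. The heterozygote, with 1 null allele, did not lie between the wild type and the mutants but had the lowest *Mgst1* level of the 4. The mean read depth over the transcript was 4.30 and 4.00 in the control embryos and 10.3 and 10.9 in the mutants, so the value rests on a moderate number of reads.

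*Mgst2*, whose protein can make the leukotriene LTC4 from LTA4 and glutathione, was the lowest of the 10 genes in every embryo. It was at 0.113 FPKM in the wild type, 0.189 in the heterozygote, and 1.10 and 0.585 in the mutants. Both mutant values were above both controls, although they differed from each other by 0.81 on the log2 scale. The mean read depth over its 589 bases was between 0.153 and 1.53, so few reads lie behind each value, and its fold difference changes with the pseudocount, from 0.67 on the log2 scale with a pseudocount of 1 to 2.38 with 0.01. With a mean of 0.496 FPKM over the embryos it did not reach the mean of 1 required for the fit across genes, and the other 9 genes did.

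*Mgst3*, the remaining MAPEG gene of the set, was at 3.11 FPKM in the wild type, 2.28 in the heterozygote, and 2.22 and 2.87 in the mutants. The groups overlapped, and the log2 difference of -0.07 was smaller than its standard error of 0.203. In the controls *Mgst1* and *Mgst3* were thus at like levels, while in the mutants all values of *Mgst1* were above those of *Mgst3*. *Mgst1* made up 49.6% and 50.2% of the summed FPKM of the 3 MAPEG genes in the controls, and 69.1% and 67.2% in the mutants. This share compares genes within a library and is not altered by a scaling factor applied to a library.

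**Figure D1:**
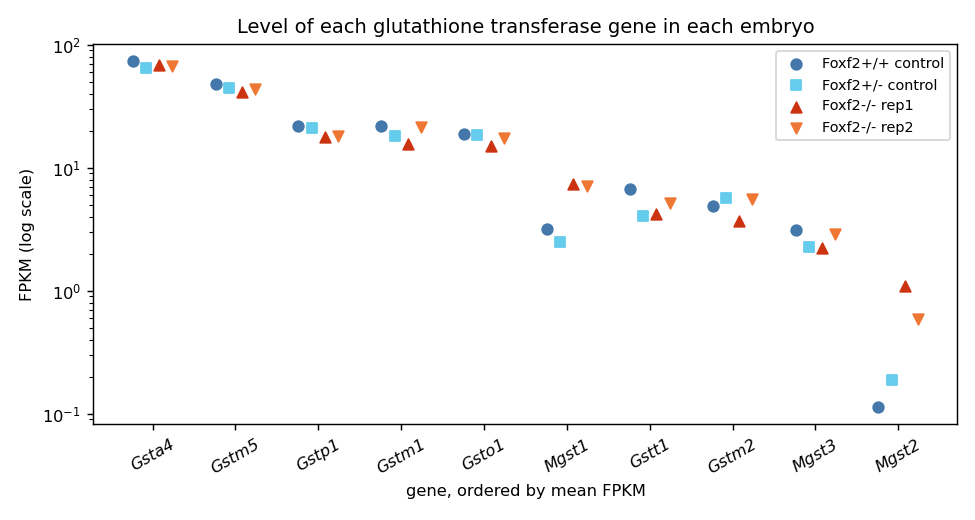
Level of each of the 10 genes in each embryo, as FPKM on a log axis, with 1 point per embryo and the genes ordered by mean FPKM. *Mgst1* is at 2.48 to 3.17 FPKM in the control embryos and at 7.06 to 7.41 FPKM in the mutants, *Mgst2* is below the other genes in every embryo, and the 4 points of the other genes lie close together.

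Among the soluble enzymes, *Gsta4* of the alpha class, which is known for conjugating 4-hydroxynonenal, a product of lipid peroxidation, had the highest level. It was at 73.3 FPKM in the wild type, 65.0 in the heterozygote, and 68.1 and 67.4 in the mutants. Both mutant values lay between the controls, with a log2 difference of -0.03 (standard error 0.092).

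The mu class genes lie in a cluster on chromosome 3, where *Gstm5*, *Gstm2* and *Gstm1* occupy chr3:107698772-107701603, chr3:107784620-107789354 and chr3:107815168-107820891 of mm9. *Gstm5*, a form known from brain and testis, was at 48.2 FPKM in the wild type, 44.6 in the heterozygote, and 41.0 and 43.5 in the mutants. Both mutants were below both controls, by a log2 difference of -0.14 (standard error 0.088). *Gstm1*, the main mu form of mouse liver, was at 21.7 and 18.2 FPKM in the wild type and the heterozygote, and at 15.7 and 21.5 in the mutants. *Gstm2* had levels of 4.87, 5.65, 3.71 and 5.58 FPKM, listed likewise. For both genes the groups overlapped and the first mutant was the lowest of the 4.

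*Gstp1*, the pi class enzyme, was at 21.7 FPKM in the wild type, 21.0 in the heterozygote, and 17.8 and 18.1 in the mutants. The groups did not overlap, and at -0.25 (standard error 0.086) it had the most negative log2 difference of the relatives in the fit. *Gsto1*, an omega class enzyme with thioltransferase activity, was at 18.7 and 18.3 FPKM in the control embryos and 15.1 and 17.5 FPKM in the mutants, again without overlap, with a log2 difference of -0.18 (standard error 0.104). *Gstt1* of the theta class was at 6.68 and 4.04 FPKM in the wild type and the heterozygote and at 4.18 and 5.18 FPKM in the mutants. Its spread between the controls, -0.71 on the log2 scale, was wider than its difference between the groups of -0.16.

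Of the 9 genes of the set in the fit, *Mgst1* was the only 1 to pass 1.5-fold against both controls. It passed upward, which 0.717% of all genes tested did, and 0 of the 9 passed downward, which 0.681% of all genes did (1.4% in either direction). The rule chose *Mgst1* by this comparison, so nothing is read from its count. *Mgst2*, outside the fit, passed 1.5-fold upward at 4.26-fold and 3.14-fold. Without the filter on the mean, which *Mgst2* did not pass, 345 of 21352 genes passed upward. Of the 8 relatives in the fit, 3 (*Gstm5*, *Gstp1* and *Gsto1*) had both mutants below both controls, which 35.8% of all genes tested had, and 0 had both above, which 9.89% of all genes had. With *Mgst1*, the groups of 4 of the 9 did not overlap, beside 45.7% of all genes. All 8 had a lower mean in the mutants in the values as deposited, with log2 differences from -0.25 to -0.03 and a median of -0.15 beside the -0.08 of all genes tested. After rescaling the libraries by median ratios or by quantiles, 6 of the 8 were lower, since *Gsta4* and *Mgst3* then had log2 differences between 0.00 and 0.05. The median of the 8 was -0.07 in both scalings, beside -0.001 and -0.005 for all genes tested. *Gstm5*, *Gstp1* and *Gsto1* stayed below both controls in both scalings, as did 21.6% and 21.8% of all genes tested. The log2 difference of *Mgst1* was 1.41 in each scaling. The plot of differences shows these values for each control.

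**Figure D2:**
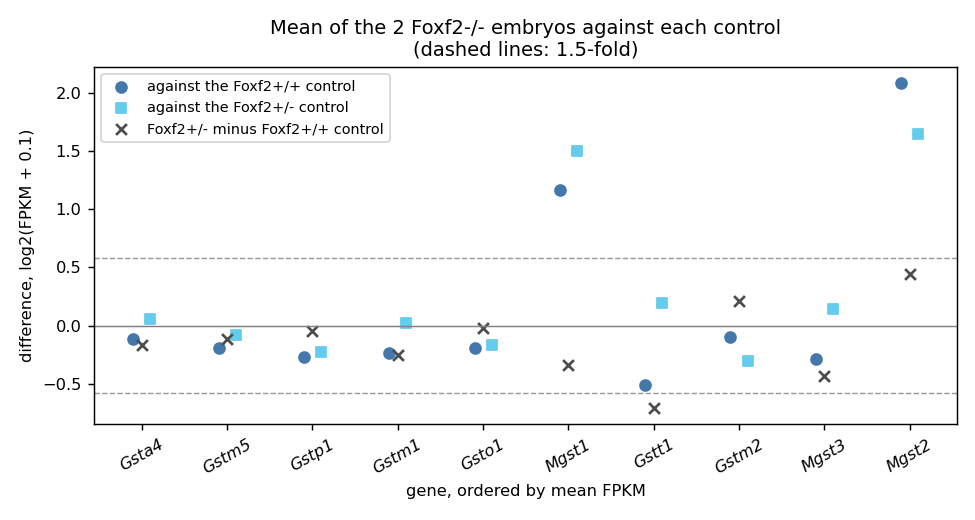
Difference between the mean of the 2 mutants and each control on the log2(FPKM + 0.1) scale, for each of the 10 genes in order of mean FPKM. Crosses give the heterozygote minus the wild type and dashed lines mark 1.5-fold. *Mgst1* (1.17 and 1.51) and *Mgst2* (2.09 and 1.65) lie above the upper line against both controls, and the mutant differences of the other 8 genes lie between the lines. The cross of *Gstt1* (-0.71) is the only cross outside them.

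In level, the genes fell into a stable order. *Gsta4* (65.0 to 73.3 FPKM) was above *Gstm5* (41.0 to 48.2 FPKM) in every embryo, and *Gstm5* was above *Gstp1*, *Gstm1* and *Gsto1* in every embryo. The last 3 genes lay between 15.1 and 21.7 FPKM with overlapping ranges, although *Gstp1* was above *Gsto1* within each of the 4 embryos. *Gstt1* and *Gstm2*, between 3.71 and 6.68 FPKM, were not separated from each other either, and both were above *Mgst3*, with *Mgst2* last. *Mgst1* had no fixed place in this order, with rank 8 of 10 in both controls and rank 6 of 10 in both mutants, where it was above *Gstt1* and *Gstm2*. In absolute terms the difference was small for the family. The FPKM of the 10 genes summed to 202 and 182 in the wild type and the heterozygote and to 176 and 189 in the mutants, and *Mgst1* made up 1.57% and 1.37% of the sum in the control embryos and 4.20% and 3.73% in the mutants.

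Some of the soluble enzymes have close copies, and their values are less certain. In GENCODE transcripts of the same build, 67.5% of the 50-base windows of the *Gstp1* transcript occur unchanged in that of *Gstp2*, and the authors' estimate gave *Gstp2* at most 0.303 FPKM. The shares were 14.8% for *Gstm1* and 5.62% for *Gstm2*, whose windows are shared with other mu class genes and a pseudogene. The other 7 genes, *Mgst1*, *Mgst2* and *Mgst3* among them, had 0 such windows in common with another protein-coding gene.

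The other transferase and MAPEG genes were then examined from a list of 19 genes outside the set, of which 7 had a mean of at least 1 FPKM and were tested. By limma with Benjamini-Hochberg adjustment over all genes tested, 0 of the 7 passed an adjusted p of 0.05 with a change of 1.5-fold in either direction, against 0.0538% of all genes upward, 0.00897% downward and 0.0628% in all, and 2 had an unadjusted p under 0.05, as did 13.0% of all genes tested (10.3% lower and 2.73% higher in the mutants). These 2 were the neighbors *Gstm6* and *Gstm7* in the mu cluster. *Gstm6* was at 4.14 and 4.42 FPKM in the wild type and the heterozygote and at 2.42 and 2.34 FPKM in the mutants, and its groups did not overlap. Its log2 difference of -0.82 (standard error 0.132) was past 1.5-fold against both controls, but its adjusted p was 0.116 in limma. In the alternative settings that kept all 4 embryos the adjusted p in limma was between 0.109 and 0.316. The log2 difference of *Gstm6* lay between -0.87 and -0.64 in the alternative settings that compare mutants with controls. In the fit on the number of *Foxf2* null alleles, the slope was -0.43 per allele. *Gstm7* was at 10.9 and 10.4 FPKM in the control embryos and at 7.78 and 8.52 FPKM in the mutants, a log2 difference of -0.38 (standard error 0.101) with an adjusted p of 0.270 in limma.

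The remaining tested genes of that list differed less. *Gstk1*, the kappa class enzyme of mitochondria and peroxisomes, was at 6.37 and 7.23 FPKM in the control embryos and 5.93 and 5.29 FPKM in the mutants, a log2 difference of -0.27 with an adjusted p of 0.400 in limma. *Gstz1*, which acts in tyrosine breakdown, *Gstcd*, *Gstm4* and *Ptges*, the MAPEG enzyme that makes prostaglandin E2, had overlapping groups and log2 differences between -0.24 and 0.13. The summed FPKM of the 7 mu class genes was 91.5 and 84.4 in the control embryos and 72.1 and 82.3 in the mutants. *Gsta1* and *Gsta2* were listed at 0 in all 4 embryos, and the other MAPEG genes *Alox5ap* and *Ltc4s* were below 1 FPKM in each. *Alox5ap* was at 0.388 and 0.664 FPKM in the control embryos and 0.838 and 0.812 FPKM in the mutants. Both mutants were thus above both controls, as for 9.89% of all genes tested. *Ltc4s* was at 0.511 FPKM in the second mutant and listed at 0 in the other embryos.

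Genes that supply and use glutathione, and the wider antioxidant response, were examined in further lists. Together with the transferase list these 8 lists hold 128 genes outside the set, of which 85 were tested. limma called 0 of the 85 changed, with 10 genes at an unadjusted p under 0.05, all lower in the mutants, and 1 of the 85, *Gstm6*, passed 1.5-fold against both controls. The 10 are 11.8% of the 85, beside 13.0% of all genes tested at that p, and 1.4% of all genes passed 1.5-fold, so both counts were near the general rate. Both mutants were below both controls for 32 of the 85 and above both for 7, beside 35.8% and 9.89% of all genes tested. Of the 20 tested genes of the Nrf2 list, limma called 0 in either direction, with 2 lower and 0 higher at an unadjusted p under 0.05, and the median log2 difference was -0.07. Its most abundant genes were *Ftl1*, *Fth1* and *Txn1*, the last of which was at 121 and 116 FPKM in the control embryos and 99.3 and 99.1 FPKM in the mutants (adjusted p = 0.308 in limma). The log2 differences of the tested genes of this list went in both directions, from -0.34 for *Abcc1* to 0.39 for *Nqo1*.

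For glutathione supply 13 genes were tested, from the synthesis enzymes to genes of amino acid carriers. Of these, 0 were called by limma, with 0 at an unadjusted p under 0.05 and a median log2 difference of -0.05. Of 15 tested genes that use glutathione, the peroxidases and glutaredoxins among them, 0 were called and 3 were lower at an unadjusted p under 0.05. *Gpx1*, the cytosolic glutathione peroxidase, was at 115 and 133 FPKM in the control embryos and 111 and 120 FPKM in the mutants. *Adh5*, which breaks down S-nitrosoglutathione, was at 44.5 and 41.7 FPKM and at 35.7 and 35.4 FPKM (adjusted p = 0.299 in limma). Superoxide dismutases, catalase, peroxiredoxins and thioredoxins gave 0 calls by limma among 13 tested genes, with 1 lower at an unadjusted p under 0.05, and *Cat* was between 52.2 and 56.1 FPKM in the 4 embryos. Eicosanoid synthesis, xenobiotic metabolism and the immediate early genes, which can respond to cell dissociation, gave 0 calls by limma among 7 tested genes each. In these lists 0, 1 and 1 genes had an unadjusted p under 0.05, and the median log2 differences were -0.02, -0.12 and -0.06. No heat shock gene was among the tested genes of the last list. The plot of lists shows the differences gene by gene, and *Mgst1*, chosen for its difference, is drawn there for scale.

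**Figure D3:**
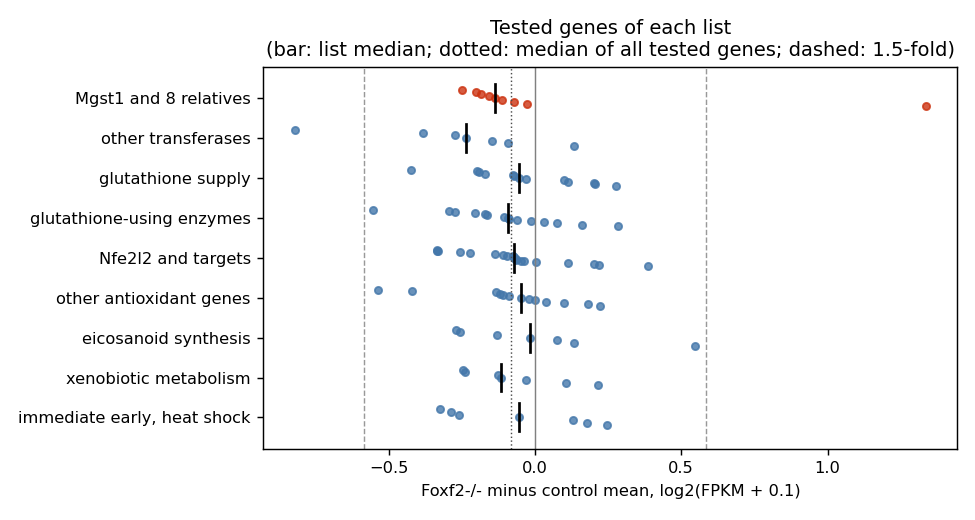
Difference between mutant and control means on the log2(FPKM + 0.1) scale for each tested gene of each list, 1 point per gene, with the genes of the set in red. Bars give the list medians, the dotted line the median of all tested genes (-0.08) and the dashed lines 1.5-fold. The points of the list of immediate early and heat shock genes are immediate early genes only. *Mgst1* at 1.34 and *Gstm6* at -0.82 are the 2 points outside the dashed lines.

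Genes around *Mgst1* were compared as well. Within 500 kb of *Mgst1* on chromosome 6 the tables list 5 genes, of which 4 were tested. *Lmo3*, which encodes a LIM domain cofactor of transcription, is the next gene after *Mgst1* (chr6:138313002-138530489, minus strand, 208 kb away). It was at 1.21 FPKM in the wild type, 1.41 in the heterozygote, and 3.12 and 3.79 in the mutants. Both mutant values were above both controls, and the 2.51-fold difference was close in size to that of *Mgst1*. Its log2 difference of 1.33 (standard error 0.180) did not pass in limma, with an adjusted p of 0.0937. In the alternative settings that kept all 4 embryos the adjusted p in limma was between 0.0625 and 0.405. The log2 difference of *Lmo3* lay between 0.94 and 1.47 in the alternative settings that compare mutants with controls. In the fit on the number of *Foxf2* null alleles, the slope was 0.76 per allele. On the other side, *Dera* (303 kb away) was at 6.18 and 4.39 FPKM in the control embryos and 6.45 and 4.88 FPKM in the mutants, and *Strap* (389 kb away) was between 33.1 and 35.2 FPKM in all 4. *Eps8*, 491 kb away, was at 5.88 and 4.83 FPKM in the control embryos and at 4.51 and 3.85 FPKM in the mutants (adjusted p = 0.375 in limma). *Slc15a5*, the gene nearest to *Mgst1* on that side, was at 0.0286 FPKM in the wild type and listed at 0 in the others.

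**Figure D4:**
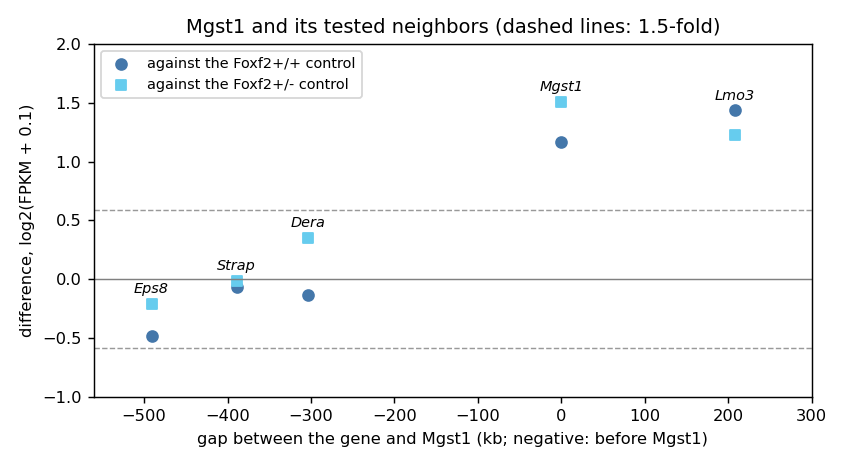
Difference between the mean of the 2 mutants and each control on the log2(FPKM + 0.1) scale for *Mgst1* and its 4 tested neighbors, against the gap to *Mgst1* in kb. *Mgst1* (1.17 and 1.51) and *Lmo3* (1.44 and 1.23) lie above the upper 1.5-fold line against both controls, and *Dera*, *Strap* and *Eps8* lie between the lines.

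By the distance between log2(FPKM + 0.1) values centered on each gene's mean over the 4 embryos, the 5 tested genes nearest to *Mgst1* outside the set were *Zcchc5* (distance 0.276), *Pthlh* (0.325), *Il33* (0.333), *1700001G17Rik* (0.343) and *Cdh8* (0.393). *Zcchc5* was at 14.7 and 9.01 FPKM in the wild type and the heterozygote and at 27.2 and 27.6 FPKM in the mutants. *Pthlh*, which encodes parathyroid hormone-related protein, was at 0.808, 0.712, 2.13 and 2.59 FPKM, listed likewise, and *Il33*, a cytokine gene, at 0.720, 0.741, 1.98 and 1.63 FPKM. A likeness over 4 embryos rests on few points, and these genes were picked for it. All but *Zcchc5* were below 1 FPKM in both controls and passed the filter on the mean through the mutants.

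Markers of other cells and of mesenchyme were read beside these values. The 9 red cell markers summed to 297 FPKM in the wild type, 1840 in the heterozygote, and 1600 and 4370 in the mutants. Of the 8 tested, 3 passed 1.5-fold upward against both controls, which 0.717% of all genes tested did. In the same embryos *Mgst1* was at 3.17 FPKM in the wild type, 2.48 in the heterozygote, and 7.41 and 7.06 in the mutants. The 8 macrophage markers summed to 14.2 and 20.4 FPKM in the control embryos and 15.5 and 23.6 in the mutants. Of the 5 tested, 0 passed 1.5-fold, beside 1.4% of all genes in either direction. The 10 epithelial markers summed to 8.74 and 9.46 FPKM in the control embryos and 9.36 and 11.6 FPKM in the mutants, and the 8 endothelial markers to between 0.480 and 1.87 FPKM, with *Cldn5* at 0 in all 4. The 8 neural and glial markers summed to 3.88 and 7.80 FPKM in the control embryos and to 6.31 and 6.78 FPKM in the mutants. The 8 muscle markers summed to 2.54 and 2.88 FPKM in the control embryos and to 1.60 and 1.56 FPKM in the mutants, with *Myog* at 0 in all 4. *Tnnt1*, the only muscle marker tested, was past 1.5-fold downward against both controls, as were 0.681% of all genes. The 10 mesenchyme markers, all tested, summed to 1560 and 1330 FPKM in the control embryos and to 1300 and 1420 FPKM in the mutants. limma called 0 markers of these 7 lists, beside 0.0628% of all genes tested. At an unadjusted p under 0.05, 3 red cell markers were higher, *Tnnt1* was lower, and 2 mesenchyme markers were higher and 2 lower, *Col3a1* among the latter with a log2 difference of -0.45 (adjusted p = 0.335 in limma). Of all genes tested, 2.73% were higher and 10.3% lower at that p. The part of other cells in the *Mgst1* and *Mgst2* values was not tested.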

How the data were processed

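RFP-positive cells of the palatal shelves were sorted from each E13.5 embryo and sequenced as 1 library per embryo. Single-end reads were aligned by the authors to mm9 through Tophat and Bowtie (version 0.12.7 in the submitters' processing notes) and FPKM were deposited for 28107 RefSeq entries per embryo in tables of the form Cufflinks writes. The version and options of that program are not given in the sources used here. The deposited coverage is the mean read depth over an entry and a fixed multiple of FPKM in each library. No read counts were used, so depth is known only relative to another library and no counting intervals are given.

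Entries of at least 200 bases without a failed estimate were summed by symbol, which left 21352 genes, and the 11154 with a mean FPKM of at least 1 over the 4 embryos were tested. A gene below 1 FPKM in the controls can pass this filter through high values in the mutants. Shorter entries were left out because their FPKM vary widely. limma 3.58.1 in R 4.3.3 was fitted to log2(FPKM + 0.1) with a variance trend, *Foxf2*-/- against both controls, with Benjamini-Hochberg adjustment over all genes tested. The standard errors given are from this fit and draw on the variance of all genes tested. Called genes had an adjusted p under 0.05 and differed by more than 1.5-fold. The study's fold cutoff, 1.5-fold against both controls, was applied without its test, which needs read numbers. Adding 0.1 understates the fold changes of low genes. The script was checked on simulated data. Python 3.11.15, pandas 2.3.3 and numpy 2.4.6 were used for the tables.

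The 10 genes, the lists and the tests were chosen with earlier results of these data known. Named were the 10 genes, tested transferases outside the set, the 3 most abundant tested genes of a list and those that were called or past 1.5-fold, tested genes within 500 kb of *Mgst1*, the 5 genes most like it, and *Foxf2* and *Osr2*. Of these, the text gives those that bear on the comparison. The genes at both ends of the range of the Nrf2 list were named as well. Genes below the filter were added where named. Starts in the tables count from 0 and were moved by 1 base. GENCODE M1 has the same build, and upstream windows are from RefSeq on GRCm38.p6. There were 15 alternative settings.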

Additional observations from a re-analysis of the deposited data

How the results depend on the processing

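*Mgst1* was past 1.5-fold upward against each control present in every alternative run. It was chosen for this difference, so nothing is read from that. The settings for the filter and the entries could not move its value, since *Mgst1* has a single entry. Its log2 difference was 1.11 with a pseudocount of 1, and between 1.17 and 1.51 as each embryo was left out. The log2 differences of its 8 relatives in the fit lay between -0.51 and 0.20 in all alternatives run for them. The count of genes called by limma, 7 in the values as reported, was 13 with a pseudocount of 1, 0 without a filter on low values, 27 with entries of all lengths, 1 with the most abundant entry only, 12 after quantile normalization, 0 without a variance trend and 20 with a separate mean for each genotype. It ranged from 7 to 38 as each embryo was left out, and was 38 without the heterozygote and 11 without either mutant. The count of genes past 1.5-fold against both controls, 156 as reported, was 67 with a pseudocount of 1, 639 without a filter, 49 with a filter that asks for 5 FPKM in 1 or more embryos, 291 with entries of all lengths and 278 with the most abundant entry only. It ranged from 213 to 572 as each embryo was left out, with 292 without the wild type, 572 without the heterozygote and 240 without the second mutant. The count of genes whose groups do not overlap, 5097 as reported, ranged from 7605 to 8499 with 1 embryo left out, where fewer values have to be ordered. Of these genes 78.4% were lower in the mutants as deposited, 50.6% after rescaling by median ratios and 51.7% after quantile normalization. Fewer samples remain where an embryo was left out, and the cause of these changes was not tested in any setting. In all 15 alternatives 0 of the fixed-list genes outside the set were called. With 1 embryo left out, a group holds a single embryo, which is assumed to vary like the other group. Depth limits *Mgst2* most, at a mean read depth of 1.53 or less. No paired analysis was possible because the labels match no mutant to a control embryo.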
